A study of Drosophila melanogaster with 3 samples.

Results

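A divergent promoter is a stretch of DNA between neighbouring genes that are transcribed away from each other, so that transcription start sites (TSSs) lie on both strands. Among the 5508 peaks of tin-GFP chromatin immunoprecipitation that passed the irreproducible discovery rate (IDR) threshold in whole Drosophila melanogaster embryos, 1084 lay at such promoters, 19.7% of the list (Wilson 95% interval 18.7 to 20.8%). A peak was taken when its summit lay within 500 bp of at least 1 plus-strand and at least 1 minus-strand TSS of protein-coding transcripts on the main chromosome arms, in the Ensembl BDGP6 annotation. The other promoter peaks, 1632 in number, had protein-coding TSSs on 1 strand only, and 2792 peaks had none within 500 bp. Divergent promoter peaks thus made up 39.9% of the 2716 promoter peaks. The choice of members used annotation and summit position, not the score.

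The embryos came from 1 transgenic strain, tin-GFP, which stably carried tin fused to GFP at its C-terminal end. They were collected at 0 to 16 h of age with males and females pooled, and 3 biological replicates formed a single group with no second genotype, treatment or age. The chromatin was sonicated to 200 to 800 bp and precipitated, per the sample descriptions, with an antibody to GFP, whereas the antibody field names tin. Whole embryos were used, so cells with Tinman were mixed with all others, and peak lists cannot check the cell types present. Read counts were not used here and the depth is unknown, and the control library was not analysed here.

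Tinman is an NK-class homeodomain protein needed for the heart and the dorsal mesoderm. Head-to-head gene pairs are common in the compact fly genome, and many of their genes are broadly expressed housekeeping genes. Promoters of this kind often hold the DNA replication-related element (DRE, bound by Dref), overlapping sites of the boundary protein BEAF-32, or Motif 1, bound by M1BP, in place of a TATA box.

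The sequences below carry the geometry and the motifs described later, all read on the plus strand of dm6. The first set shows the whole interval from the minus-strand TSS to the plus-strand TSS for the 3 highest-scoring members with gaps below 300 bp between their TSSs. They are mRpS10/Art3 at chr3R:15229408-15229665, Ssl1/Chro at chr3L:22878984-22879089 and CHMP2B/Tcs5 at chr3L:5139395-5139619, each pair written with the plus-strand gene first. Capitals mark a Tinman letter match (TCAAGTG or TTAAGTG) in the second and the hexamer CAGCTG in the third.
mRpS10/Art3: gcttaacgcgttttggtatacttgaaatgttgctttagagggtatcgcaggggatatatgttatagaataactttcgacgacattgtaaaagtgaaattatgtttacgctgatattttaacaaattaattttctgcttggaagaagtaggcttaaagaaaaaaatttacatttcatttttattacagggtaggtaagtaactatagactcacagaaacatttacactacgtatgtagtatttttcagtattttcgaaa
Ssl1/Chro: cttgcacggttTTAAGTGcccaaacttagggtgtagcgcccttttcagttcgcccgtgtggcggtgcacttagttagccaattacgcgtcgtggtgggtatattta
CHMP2B/Tcs5: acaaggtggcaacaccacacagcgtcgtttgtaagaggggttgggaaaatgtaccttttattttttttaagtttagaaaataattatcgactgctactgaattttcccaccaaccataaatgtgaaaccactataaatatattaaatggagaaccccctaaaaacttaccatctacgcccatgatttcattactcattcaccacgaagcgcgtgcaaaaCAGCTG

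The next pair shows the 50 bp to either side of the summit for a member with a DRE, TATCGATA in capitals, and one with Motif 1, GGTCACAC in capitals. These are eIF1/RpL28 at chr3L:3222966-3223066 and Lamtor4/Gr63a at chr3L:3896806-3896906, the latter also among the 5 lowest-scoring members.
eIF1/RpL28: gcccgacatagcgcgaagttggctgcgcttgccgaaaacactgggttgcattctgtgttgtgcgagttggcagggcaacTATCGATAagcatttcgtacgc
Lamtor4/Gr63a: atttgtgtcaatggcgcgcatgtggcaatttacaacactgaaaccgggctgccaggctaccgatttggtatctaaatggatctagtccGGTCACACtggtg

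The last set shows the 50 bp to either side of the summit of the 5 highest-scoring members with a Tinman letter match within 50 bp of the summit, in capitals. They are CIA30/CG7601 at chr3R:29736827-29736927, MED27/elm at chr3R:5654923-5655023, CG18661/alien at chr2L:8997488-8997588, CG13876/Gk1 at chr3L:205879-205979 and cold/Ipk2 at chr2L:574406-574506. In cold/Ipk2 the match is on the minus strand and reads CACTTAA on the printed strand.
CIA30/CG7601: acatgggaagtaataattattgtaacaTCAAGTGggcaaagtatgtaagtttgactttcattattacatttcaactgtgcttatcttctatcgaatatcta
MED27/elm: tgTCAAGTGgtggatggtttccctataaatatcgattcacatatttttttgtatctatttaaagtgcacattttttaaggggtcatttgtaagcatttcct
CG18661/alien: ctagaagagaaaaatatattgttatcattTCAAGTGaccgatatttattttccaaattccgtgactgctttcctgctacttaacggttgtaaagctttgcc
CG13876/Gk1: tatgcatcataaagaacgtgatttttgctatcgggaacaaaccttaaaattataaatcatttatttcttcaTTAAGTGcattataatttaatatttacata
cold/Ipk2: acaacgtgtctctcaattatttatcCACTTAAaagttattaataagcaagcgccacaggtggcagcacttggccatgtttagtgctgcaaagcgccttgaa

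The label of divergent promoters held for nearly all members. In 1069 of 1084 (98.6%, 97.7 to 99.2%) the nearest TSSs on the 2 strands stood head to head. In 15 they faced each other, 6 to 632 bp apart with a median of 141 bp, and the overlap of the transcripts was not measured. Among the facing pairs were eRF3/SC35, a translation release factor beside a splicing factor, and Lkb1/CG9588, with the kinase Lkb1. Orientation was read from the TSSs nearest to each summit, and another member at eRF3/SC35 counted as head to head, with TSSs 414 bp apart. The members covered 963 distinct gene pairs. Of these, 843 pairs held 1 member and 120 held 2 or 3, so that 241 members shared their pair with another and are not independent. Most members, 1031, had exactly 2 genes within 500 bp, and 53 had 3 or more, with 10 as the highest number.

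The rule holds both start sites within 500 bp of one summit, so the gap between them could not exceed 1000 bp. The gap between head-to-head TSSs had a median of 290 bp, with quartiles of 220 and 392 bp and a range of 1 to 730 bp. The shortest was at Pisd/Atg6, in which Atg6 acts in autophagy, and the longest at CG43078/CG6638. The summit lay between the TSSs in 924 of 1069 pairs (86.4%, 84.3 to 88.4%). Its distance from the midpoint had a median of 73 bp, and it was within 50 bp of the midpoint in 35.2%. The plus-strand TSS was the nearer one in 552 pairs and the minus-strand TSS in 514, with 3 at equal distance, so the summits were split almost evenly. The nearest TSS was at a median of 71 bp and the farther at 221 bp. One-strand promoter peaks lay farther out, at a median of 148 bp from their nearest TSS, and 37.3% of them were within 100 bp of it against 68.4% of divergent promoter peaks. A member has a TSS on each strand to be near to, so the rule itself favours this difference, and it was not tested.

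**Figure D1:**
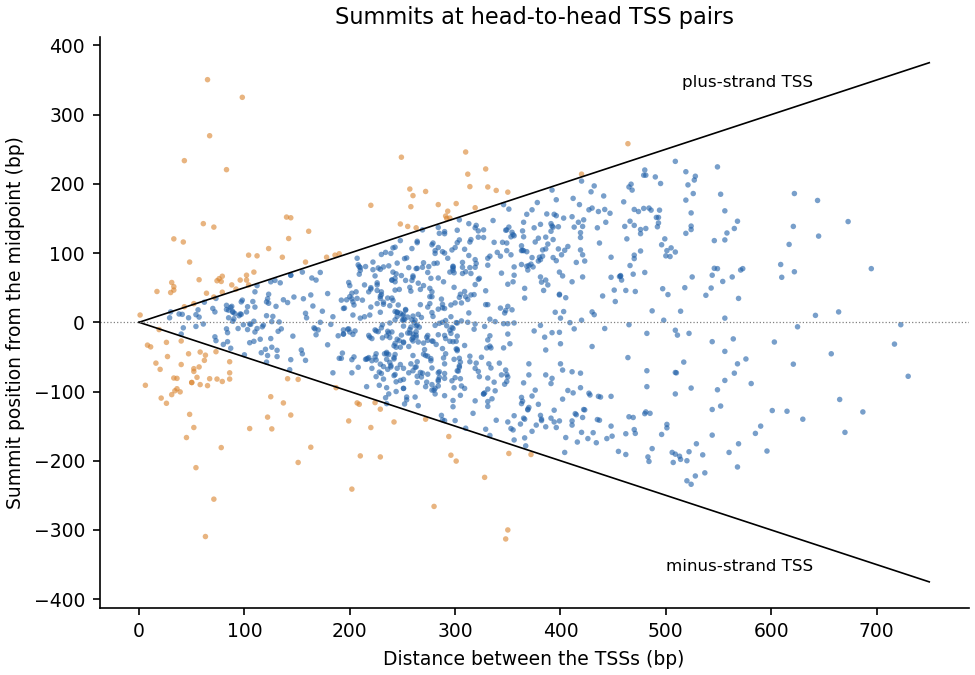
Each point is 1 of the 1069 head-to-head members, with the distance between its TSSs in bp on the x axis and the summit position relative to the midpoint in bp on the y axis. The black lines mark the TSSs, blue points are the 924 summits between them and orange points those outside, and at gaps above 300 bp many summits lie toward one TSS rather than at the midpoint.

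The place of the summit was described by gap. Up to 100 bp (n = 115), the summit was at a median of 30 bp from its nearest TSS and 46.5 bp from the midpoint. At 100 to 200 bp (n = 115) these medians were 43 bp and 39.5 bp, and at 200 to 300 bp (n = 341) they were 68 bp and 57 bp. At 300 to 400 bp (n = 252) they were 81 bp and 94.75 bp, and at 400 to 500 bp (n = 142) they were 94.5 bp and 134 bp. Above 500 bp (n = 104) they were 172.5 bp and 118.5 bp, but there the rule itself holds the summit toward the midpoint. At gaps up to 100 bp only 36.5% of 115 summits lay between the TSSs.

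By annotation, 776 summits (71.6%) were intergenic, 203 lay in a 5' UTR, 99 in an intron, 3 in a 3' UTR and 3 in coding sequence. Of one-strand promoter peaks, 54.0% were intergenic and 30.7% intronic. By arm, 3R held 319 members, 3L 231, 2L 209, 2R 191 and X 134, while chromosome 4 held 0. Read against the genes available, 47.1% of the 1256 paired genes of 3R had a member at a TSS, 40.9% on 3L, 38.8% on 2L, 34.1% on 2R and 32.3% on X, while none of the 22 paired genes of chromosome 4 did. Neighbouring genes of a pair are counted together here, and these shares were not tested.

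Pooled entries at divergent promoters passed the IDR threshold more often than those elsewhere. Of 2116 such entries in the pooled list, 51.2% (49.1 to 53.4%) were in the IDR list, beside 18.4% of all 30000 pooled entries. The share was 25.6% (24.5 to 26.7%) for 6377 entries at one-strand promoters and 12.98% (12.5 to 13.4%) for 21507 entries away from promoters. The intervals cover counting error over entries only, and entries are not replicates. The IDR list holds the highest scores of the pooled list, so this share and the score are one measure.

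The score, the peak caller's signal value, has no stated unit and compares entries within a list. In the IDR list it had a median of 292 at divergent promoters (quartiles 201.3 and 468, range 147 to 3139), 256 at one-strand promoters and 241 elsewhere. From the highest-scoring to the lowest-scoring of 5 equal groups of the list, the share of divergent promoter peaks was 26.0%, 22.3%, 18.1%, 17.6% and 14.4%. The highest score of all was not at a divergent promoter, since one-strand promoter peaks reached 4944. Members with the farther TSS just inside the limit, at 450 to 500 bp (n = 34), had a median score of 240, and peaks just outside it, at 500 to 550 bp (n = 30), one of 211.

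The same order held in each replicate's own list. Divergent promoters took 19.9%, 17.6% and 18.8% of the 5508 highest-scoring entries of replicates 1, 2 and 3. They took 4.58%, 4.51% and 3.33% of the remaining entries. All 3 top shares lay above all 3 remaining shares. The difference was 15.3, 13.04 and 15.5 percentage points, with a mean of 14.6 ± 1.37 (SD, n = 3; exact two-sided sign-flip test, p = 0.25). With 3 replicates 0.25 is the smallest p this test can give, here and in each later sign-flip test, so this test cannot reach 0.05 here. One-strand promoters were also more frequent at the top. They took 32.2%, 29.8% and 28.3% of the top entries of replicates 1, 2 and 3, against 20.8%, 20.3% and 15.3% of the remaining ones. Nothing in the labels beyond the replicate numbers says how the embryo collections were separated.

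Members were found again in nearly every replicate. An entry of the replicate overlapped 1083, 1082 and 1077 of the 1084 members, and an entry among its own 5508 highest did so for 94.5%, 86.0% and 91.1%. All 3 replicates had such a high entry at 842 members (77.7%), 2 replicates at 178, 1 at 61 and none at 3. At one-strand promoters the share found in all 3 was 72.4%. In replicate 2 alone the members' share of 86.0% lay just below that of one-strand promoter peaks, 86.4%, and of peaks away from promoters, 88.0%. The replicate summit was displaced from the IDR summit by a median of 13, 16 and 17 bp. The replicate's own summit met the rule in 1072, 1071 and 1071 members. The IDR list was made from these replicates, so this is a description of its members and no independent check.

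Against one-strand promoters the score was higher in each replicate, by a small amount. The median score of the matching entries was 119, 89.2 and 107 at divergent promoters in replicates 1, 2 and 3, against 106, 83.5 and 87.6 at one-strand promoters. Neighbouring IDR peaks could share a matching entry, as both members at Nup37/RpS27 did. The log2 difference was 0.17, 0.10 and 0.28, with a mean of 0.18 ± 0.09 (SD, n = 3; exact two-sided sign-flip test, p = 0.25), a fold of 1.14 ± 0.0749. With replicate summits required within 100 bp of the IDR summit, the mean log2 difference was 0.14. Among promoter peaks within 100 bp of their nearest TSS it was 0.38, so the classes were farther apart under this limit. Distances within the limit were not matched.

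Pairs with gaps of 200 to 300 bp scored highest among the gap classes. Their median score was 352 in the IDR list. In the replicates it was 140, 106 and 126, above every other gap class in each of the 3. Pairs over 500 bp apart (n = 104) had a median of 253 in the IDR list and 96.9, 79.1 and 97.5 in the replicates. Pairs with 100 to 200 bp (n = 115) had 260. The differences between gap classes were not tested.

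The highest-scoring member was mRpS10/Art3 at chr3R:15229312-15229764, rank 6 of the IDR list, between a mitochondrial ribosomal protein gene and an arginine methyltransferase gene. Its score was 1083, 909 and 1154 in replicates 1, 2 and 3, which placed it at ranks 6, 10 and 5. Its summit was intergenic, 139 bp from the TSS of mRpS10 and 118 bp from that of Art3, so it falls near the middle of the 258 bp printed above.

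Ssl1/Chro at chr3L:22878683-22879141 pairs a TFIIH subunit with Chromator, a chromodomain protein of polytene interbands and the spindle. Its scores were 1072, 928 and 1083, at ranks 7, 9 and 8. The summit was not between the TSSs but inside the Chro transcript, in its 5' UTR. The Tinman letter match of the printed interval therefore lay more than 100 bp from the summit.

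CenG1A/mRpS23 scored 911, 979 and 991, at ranks 13, 6 and 11, between an Arf GTPase-activating protein gene and a mitochondrial ribosomal protein gene. CHMP2B/Tcs5 scored 914, 832 and 1026, with CHMP2B encoding an ESCRT-III subunit and Tcs5 a kinase of tRNA modification. These first 4 members were within the first 13 entries of every replicate.

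Shc/Atat, a receptor tyrosine kinase adaptor and a tubulin acetyltransferase, scored 711, 736 and 945, at ranks 32, 22 and 12. CG9004/mRpL23 scored 753, 626 and 736, and its summit lay outside a gap of only 50 bp. PIG-F/Lon, a gene of GPI-anchor synthesis and a mitochondrial protease gene, scored 741, 569 and 787. Scores are on each list's own scale, with medians over all members of 119, 89.2 and 107, so only ranks compare replicates.

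All 20 were among the first 79, 106 and 75 entries of replicates 1, 2 and 3. Their gaps ran from 27 to 505 bp with a median of 245 bp, 14 summits lay between the TSSs and 11 were intergenic. Further down this group were SLIRP2/Mkk4, with the JNK kinase Mkk4, l(2)gd1/Reps, with a gene of endosomal Notch traffic, and CIA30/CG7601, with a complex I assembly factor. None of the 20 had a DRE or Motif 1 match within 50 bp of the summit. The GC content within 50 bp of their summits ran from 20.8 to 43.6%.

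**Figure D2:**
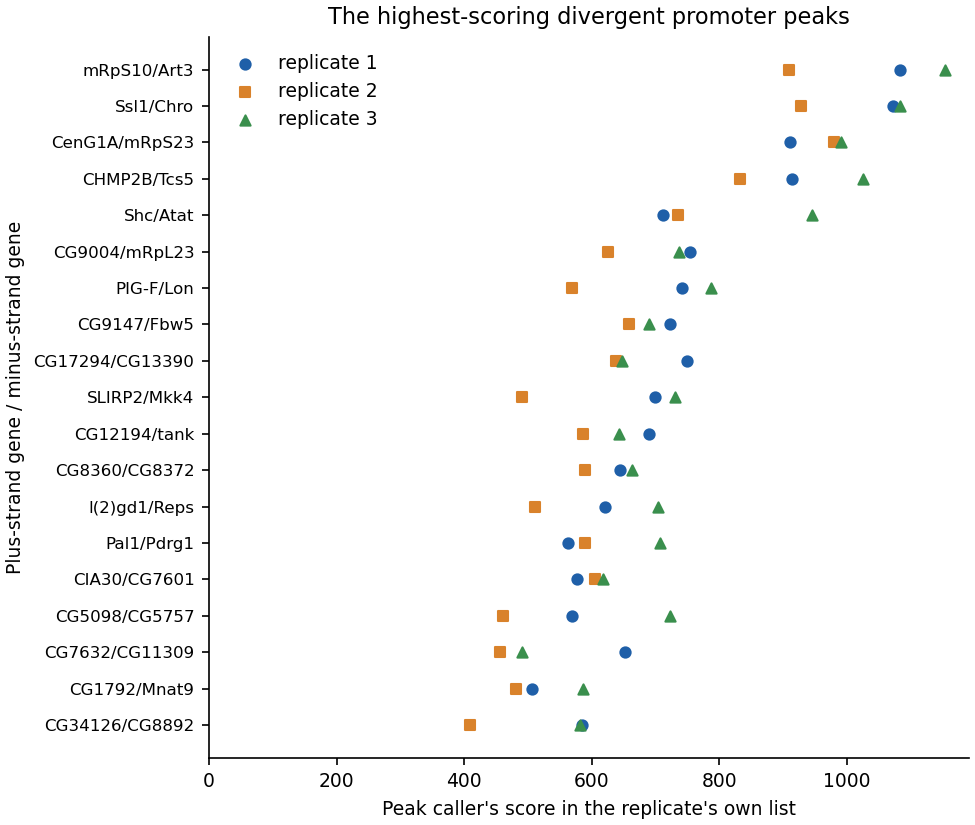
The x axis gives the peak caller's score (no unit) in each replicate's own list for 19 of the 20 highest-scoring divergent promoter peaks, listed by pair from the highest pooled score down. Circles, squares and triangles are replicates 1, 2 and 3, each on its own scale. The first pair, mRpS10/Art3, is at 1083, 909 and 1154.

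Members near the foot of the IDR list varied widely in rank between replicates. Lamtor4/Gr63a, with a subunit of the lysosomal Ragulator complex and a carbon dioxide receptor gene, scored 69.5, 53.3 and 18.8, at ranks 4392, 4828 and 22608. Replicate 3 alone put it far down. Arms/CG9752 scored 53.9, 25.2 and 49.8, at ranks 6027, 13734 and 5178, with replicate 2 the low one. The other 3 of the lowest 5, Sbds/velo, l(2)k01209/cnk and scny/Ppat-Dpck, were also ranked lowest by replicate 2.

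The 3 members named for cytoplasmic ribosomal proteins, and the named initiation factor pair that includes RpL28, differed in rank between replicates. Nup37/RpS27, a nuclear pore gene beside a ribosomal protein gene, scored 640, 206 and 328, at ranks 45, 516 and 213. CG7943/RpL32 scored 393, 238 and 363, at ranks 156, 379 and 162. CG8132/RpL34b scored 410, 172 and 320, at ranks 139, 752 and 224. In eIF1/RpL28, a start-codon selection factor beside a ribosomal protein gene, the scores were 342, 133 and 211, at ranks 217, 1243 and 572. Replicate 2 ranked all 4 lowest. On another scale, with ranks taken among the IDR peaks only, the median member was also lowest in replicate 2. It stood at 2469 there, against 2100 and 2072 in replicates 1 and 3. Over all 39 members at listed cytoplasmic ribosomal protein genes, replicate 2 gave the lowest of the 3 ranks in 25, replicate 3 in 12 and replicate 1 in 2. Over all 1084 members these counts were 551, 263 and 270. The counts were made after the values were seen, some members share a replicate entry, and no test was made of the difference.

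Divergent promoter peaks lay at 1986 of 13945 protein-coding genes (14.2%), and gene lists differed in how often. The lists were read beside the share of their genes with a head-to-head partner within 1000 bp, without which a member is nearly impossible. A member lay at 39.2% of the 5052 paired genes of the genome. Over the 13 lists of broadly expressed complexes and chromatin or cell cycle genes, 215 of 638 genes (33.7%) had one, or 53.6% of the 401 paired.

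The share was 32 of 73 for mitochondrial ribosomal proteins, 34 of 93 for cytoplasmic ribosomal proteins and 16 of 33 for spliceosome subunits. It was 14 of 34 for tRNA synthetases, 17 of 42 for Mediator and RNA polymerase II, and 34 of 86 for ESCRT and vesicle transport. Lower shares were seen for translation initiation factors, 7 of 44, and for the respiratory chain and ATP synthase, 19 of 88. The proteasome stood between with 12 of 48. Cell cycle genes had 9 of 27 and DNA replication genes 9 of 34. Among paired genes only, the share over the 13 lists ran from 33.3% for initiation factors to 69.2% for cell cycle genes. It was 60.7% for cytoplasmic ribosomal protein genes and 55.2% for spliceosome genes. The lists were described by counts alone, with no test.

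Members at Mediator and polymerase genes included MED27/elm, which scored 329, 282 and 346, and Polr2B/140up, with the second-largest RNA polymerase II subunit, at 345, 205 and 269. At synthetase genes, IleRS/Hem, with the isoleucine enzyme, scored 275, 252 and 273, at ranks 394, 323 and 333. AP-1sigma/GluProRS, at 267, 210 and 329, counted for both a synthetase and a clathrin adaptor subunit.

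Among chromatin genes, 6 of the 15 insulator and promoter factor genes found by symbol had a member. Ssl1/Chro is given above. CG4338/Cp190, with the insulator cofactor Cp190, scored 418, 427 and 435. CG8202/M1BP, with the Motif 1 binding protein itself, scored 208, 163 and 203. Of 21 Polycomb and trithorax genes 6 had one, among them Arl1/brm, with the Brahma remodelling ATPase, at 441, 328 and 408. Cnep1r2/E(z), with the methyltransferase of histone H3 lysine 27, scored 267, 188 and 264.

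Both genes of a pair were on the same list in only 2 cases. Mcm2/RPA1, a replicative helicase subunit beside a single-strand DNA binding protein, scored 139, 138 and 198, at ranks 1552, 1169 and 657. Vps2/Exo84, an ESCRT-III subunit beside an exocyst subunit, scored 81.4, 85.0 and 120, at ranks 3526, 2509 and 1605. Replicate 3 ranked both highest.

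No member lay at any of the 52 genes of the 4 tissue and cell type lists, which hold heart and dorsal mesoderm, visceral mesoderm, somatic muscle identity and other cell types. Only 4 of these genes, Mef2, mib2, sd and vas, have a head-to-head partner within 1000 bp, and none of the 4 had an IDR peak at a TSS. An IDR peak without a divergent promoter lay at a TSS of 6 of the 52, which were tin, htl, org-1, Poxm, Ptx1 and elav. That is 11.5% of the listed genes, beside 24.3% of all protein-coding genes with an IDR peak at a TSS. None of the 6 has a head-to-head partner within 1000 bp, and over all genes without one the share was 13.1%. A pooled entry lay at a TSS of 39 of the 52, beside 7351 of all 13945 protein-coding genes. These shares were not tested. With 4 paired genes the lists offered few chances for a member.

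**Figure D3:**
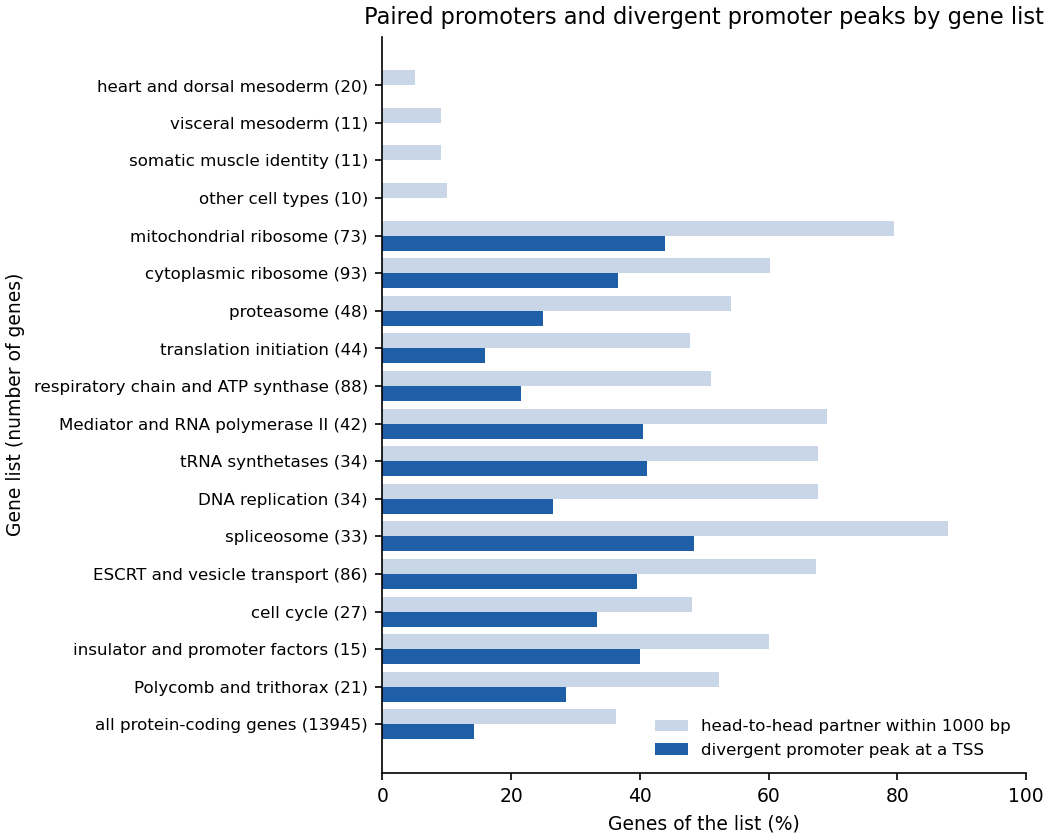
For each gene list, with its number of genes, the pale bar gives the percentage of genes with a head-to-head partner within 1000 bp and the dark bar the percentage with a divergent promoter peak within 500 bp of a TSS. The tissue and cell type lists have no dark bar, and the last row gives all protein-coding genes at 14.2%.

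Across the genome, a head-to-head partner went with a peak. Of the 5052 genes with a partner within 1000 bp, 44.1% (42.7 to 45.5%) had an IDR peak within 500 bp of a TSS, against 13.1% (12.4 to 13.8%) of the 8893 genes without. The difference was 31.0 percentage points (Newcombe 95% interval 29.5 to 32.5), over genes and not over replicates. By gap the share was 39.3% up to 100 bp, 37.5% at 100 to 200 bp, 59.9% at 200 to 300 bp, 56.4% at 300 to 400 bp, 48.7% at 400 to 500 bp and 28.2% at 500 to 1000 bp. A peak between paired genes counts for both, so the windows of such genes overlap. With a window of 100 bp the shares were 19.8% and 5.41%.

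DRE and CGATA letters were more frequent at divergent than at one-strand promoter summits, and GAGAG less so. Among promoter peaks within 100 bp of their nearest TSS, the DRE and CGATA differences had the other sign, with intervals that included 0. Matches on either strand were counted within 50 bp of the summit, with intervals of the difference widened to a joint 95% over 13 motifs. The DRE was in 72 of 1084 members (6.64%) and in 3.98% of one-strand promoter peaks, a difference of 2.66 points (0.165 to 5.46). CGATA, which lies inside the DRE and in BEAF-32 sites, was in 31.3% against 24.1%, a difference of 7.19 points (2.15 to 12.3). GAGAG, bound by GAGA factor, was in 6.64% against 10.8%, a difference of -4.20 points (-7.27 to -0.957).

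Each of the 3 differences had the same sign in the top entries of 3 of 3 replicates (exact two-sided sign-flip test, p = 0.25 for each). The DRE differed by 3.35, 2.83 and 3.49 points and CGATA by 8.93, 7.71 and 6.85 points in replicates 1, 2 and 3. GAGAG differed by -4.96, -5.07 and -3.82 points. Among the 2754 highest-scoring IDR peaks the GAGAG interval included 0, at -2.67 points (-6.81 to 1.69).

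Among promoter peaks within 100 bp of the nearest TSS, 741 divergent and 609 one-strand, no motif had a joint interval that excluded 0. The DRE was then in 8.77% against 10.02%, and the difference was -1.24 points (-6.06 to 3.35). CGATA was in 37.7% against 41.4%, a difference of -3.73 points (-11.4 to 3.96). GAGAG kept its sign at -2.42 points (-6.92 to 1.81). Distance to the TSS thus moved with the motif shares, and what part of them it accounts for was not tested.

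For comparison, windows of the same length ending at each of 19253 annotated TSSs held the DRE in 5.204%, CGATA in 26.0%, GAGAG in 15.4%, Motif 1 in 2.63% and the Tinman letters in 3.13%. In the flanks of the members, 500 bp to either side, the DRE was in 0.277% and 0.185%. The 75 DRE matches at members lay at a median of 31.5 bp from the nearest TSS, and 68 (90.7%) were between the TSSs. From the narrowest to the widest of the 6 gap classes above, the DRE share was 13.04%, 8.70%, 4.40%, 8.33%, 5.63% and 2.88%, with no steady order.

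The Tinman letters were infrequent at members. They were in 31 of 1084 (2.86%, 2.02 to 4.03%), beside 3.55% at one-strand promoters, 5.16% at peaks away from promoters and 2.12% in each flank of the members. The difference from one-strand promoters was -0.69 points, with a joint interval of -2.64 to 1.47 that includes 0. Members with a match had a median score of 377 and those without 289, which was not tested.

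The 5 highest-scoring members with a match are those printed above. CIA30/CG7601 scored 577, 606 and 617, at ranks 60, 39 and 46. MED27/elm follows at rank 214 of the IDR list. CG18661/alien, with a COP9 signalosome subunit, scored 208, 204 and 287. CG13876/Gk1, with a glycerol kinase, scored 216, 143 and 184, and cold/Ipk2 235, 126 and 159. All 5 summits lay between the TSSs, with gaps of 220 to 290 bp.

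For Motif 1, 37 members (3.41%) held a match against 2.14% of one-strand promoter peaks, a difference of 1.27 points (-0.554 to 3.41). Its members had a median score of 198. CAGCTG was in 6.55% against 5.27%, at a share like that of the flanks, 6.46% and 6.27%. TATAAA letters were in 19.1% against 16.5%, and GATA letters (AGATAA or AGATAG, each also with T as the first letter) in 18.7% against 18.3%. The initiator letters (TCAGTC or TCAGTT) were in 7.20% against 7.66%, and CATATG or CACATG, the Twist E-box letters, in 5.35% against 6.68%. The Mef2 motif was in 6.73% against 6.00%, the CTCF letters (AGNTGGCGC) in 1.01% against 2.02%, and the Zelda letters (CAGGTAG) in 0.369% against 0.429%. The joint intervals of all these included 0.

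At all TSS windows, CAGCTG was in 7.64%, TATAAA in 18.2%, the GATA letters in 18.5% and the initiator letters in 12.9%. The Mef2 motif was in 3.47%, the CTCF letters in 0.540%, the Zelda letters in 0.665% and the Twist E-box letters in 5.84%. None of the 13 motifs was present in 290 members (26.8%).

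**Figure D4:**
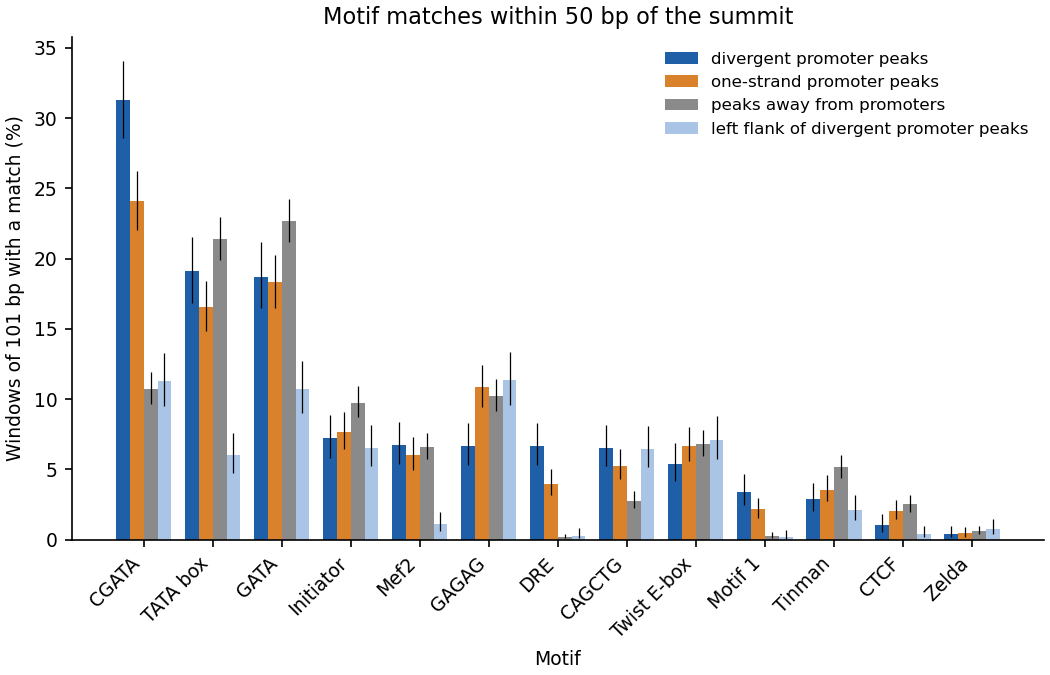
Bars give the percentage of windows reaching 50 bp to either side of the summit with at least 1 match of each motif for divergent promoter peaks, one-strand promoter peaks, peaks away from promoters and the left flank of the divergent promoter peaks, with Wilson 95% intervals. CGATA is the most frequent at divergent promoters (31.3%), and the DRE is near 0 in the flank and away from promoters.

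Without a motif list, the 8-letter words most frequent at member summits relative to their flanks were ATCGATAG in 78 members, TATCGATA in 72 and CAACACTG in 62, each in a mean of 2, 2.5 and 2 flank windows. These 3 led 26139 words by this ratio. The first 2 overlap each other in the DRE. The third was in 4.29% of one-strand promoter peaks against 5.72% of members, and it can be read in the Lamtor4/Gr63a sequence above.

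Divergent promoter summits were lower in GC than one-strand promoter summits, and their flanks were higher. Mean GC content within 50 bp of the summit was 35.8% against 37.96% at one-strand promoters. In the replicates' own top entries it was 36.2%, 35.1% and 35.5% against 39.0%, 37.9% and 37.6%, a mean difference of -2.57 ± 0.409 points (SD, n = 3; exact two-sided sign-flip test, p = 0.25). The 3 divergent values were all below the 3 one-strand values. Within 100 bp of the nearest TSS the difference in the IDR list was -5.08 points, 38.3% against 43.4%. At 500 bp to the left and right, the GC content of members had risen to 50.3% and 49.5%, and that of one-strand promoter peaks to 43.4% and 43.5%. Peaks away from promoters were lower still at the summit, 33.3% against 35.9% in windows of 51 bp, and had flanks of 44.9% and 44.6% at 250 bp, against 43.8% and 43.8% at members. Head-to-head pairs have transcripts on both sides, and their part in the flanks was not tested.

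**Figure D5:**
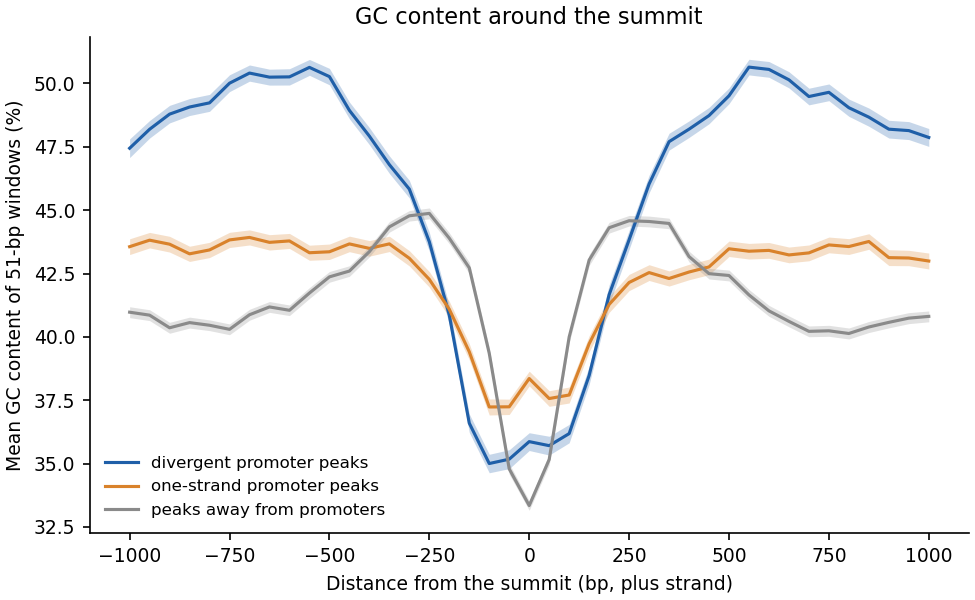
The x axis gives the distance from the summit in bp on the plus strand and the y axis the mean GC content of 51-bp windows in percent, with a band of 1 standard error over peaks. Divergent promoter peaks lie below one-strand promoter peaks at the summit and above both other classes from about 300 bp outward, with 50.3% at 500 bp to the left.

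Peak width was close in both promoter classes. The mean was 344 bp against 351 bp. The median was 430 bp in each and also at peaks away from promoters. Each of the 5 lowest-scoring members had this same width, so the equal medians of a repeated value say little about the classes. Among the 2754 highest-scoring IDR peaks the sign of the mean difference turned, to 2.04 bp wider at divergent promoters.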

How the data were processed

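Peak lists of 3 tin-GFP replicates, of their pooled data and of the IDR step were deposited by the authors in narrowPeak format on dm6. Per the deposited notes, alignments and a control gave the replicate and pooled lists, which hold peaks with background for the IDR step, and these lists gave the IDR list. For the aligner, the peak caller, versions and the IDR threshold, nothing is stated in the notes or labels. The deposited score is the caller's signal value, with no stated normalization. The deposited −log10 q value was 4.05 throughout the IDR list, and it entered one alternative only. The summit offset deposited by the authors gave each summit. The lists on dm3 were not used.

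TSSs came from Ensembl release 115 (BDGP6.54), 19253 distinct positions of 13945 protein-coding genes. One replicate 2 entry off the main arms was left out. An overlap of at least 1 bp matched IDR peaks to replicate entries, taking the highest score. Replicate differences were tested with an exact two-sided sign-flip test. Shares carry Wilson intervals and differences Newcombe intervals (95%), which cover counting error over peaks only. Motifs were searched on both strands of the dm6 genome sequence, and the classification and motif comparison were tested on simulated data. Python 3.11.15 with pandas 2.3.3 and scipy 1.17.1 was used.

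Named members were the 20 highest, the 5 lowest, the 5 highest with a Tinman match, the 3 highest of each gene list, and the shortest and longest gap. One of the 20 highest is not reported here. The facing and same-list pairs were chosen after their values were seen. Members, lists and tests were chosen with earlier results of these data known. The alternatives varied the TSS window, annotation, orientation, list depth, match rule, sequence window, GC, distance to the TSS and replicate.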

Additional observations from a re-analysis of the deposited data

How the results depend on the processing

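Depth is unknown, so the precision of single scores is too, and the sign-flip test over 3 replicates allows no p below 0.25. The number of members was 639 with a 250 bp TSS window and 639 among the 2754 highest-scoring IDR peaks. The share of members was 11.6% at 250 bp, 24.2% at 1000 bp, 18.3% with one TSS per gene, 21.2% with transcripts of any biotype and 23.2% among those. The mean log2 score difference from one-strand promoters ranged from 0.13 to 0.23 when each replicate was left out. It was 0.14 with replicate summits required within 100 bp of the IDR summit and 0.38 within 100 bp of the nearest TSS. The mean rank difference was -446, from -538 to -352 when each replicate was left out, -660 at 250 bp and -1015 within 100 bp of the nearest TSS. The −log10 p column holds no values, so that alternative was not run, and in the −log10 q column, chosen after seeing the data, the medians differed by 0, since most values are tied at each list's maximum. The excess of divergent entries at the top was 9.32 points with a 250 bp window, and from 14.2 to 15.4 when each replicate was left out. The number of motifs whose joint interval excluded 0 was 3. To leave out a replicate for motifs and GC, only IDR peaks with an entry among the 5508 highest of both other replicates were kept. The IDR list and its summits still came from all 3 replicates. The number was 3 in each such subset and 2 (CGATA and DRE) among the 2754 highest-scoring peaks. It was 1 (CGATA) in windows of 51 bp and 5 in windows reaching 100 bp to either side (Motif 1 and CAGCTG in addition). Within 100 bp of the nearest TSS it was 0. There the DRE difference reversed to -1.24 points and the CGATA difference to -3.73 points, and the GC difference was -5.08 points. In the subsets of the IDR list that left out each replicate, the GC difference was between -2.11 and -1.99 points, against -2.12. The mean width difference of -6.85 bp reversed to 2.04 bp among the 2754 highest-scoring peaks. Genes with a head-to-head partner exceeded those without by 14.4 points at a TSS window of 100 bp, 27.3 at 250 bp, 32.6 at 1000 bp and 34.3 with partners within 500 bp, settings chosen after seeing the data. Of 91 motif differences with an interval under the alternatives, 80 stayed within the joint interval of the reported difference and on the same side of the call. All 13 standardized over GC stayed within it, with no call made. Most of these belong to motifs without a call, and the alternatives reuse the same peaks, so the count says little about the 3 called motifs. Over 8 alternatives each, CGATA ranged from -3.73 to 12.3 points, the DRE from -1.24 to 5.25 and GAGAG from -10.7 to -1.73. Where values moved, the cause was not tested. No paired analysis was possible because all replicates form 1 group.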
